A study of Danio rerio with 12 samples.

Results

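The lens crystallin genes are the 52 of 32105 genes in the count table whose zebrafish symbol starts with crya, cryb or cryg, the crybg genes left out. By symbol, 3 of them encode alpha, 13 beta and 36 gamma crystallins, and 18 of the gamma genes are numbered copies of crygm2d. Transcripts were counted by RNA sequencing of whole wild-type zebrafish aged 2 days, in 12 libraries of 3 groups. The control group (4 libraries) had no perturbation. The miR-101a group (4 libraries) had synthetic miR-101a at 2 ng, and the miR-29a group (4 libraries) had synthetic miR-29a at the same dose. A mock treatment and a route of delivery are not named in the labels, so the microRNA and the procedure that delivered it cannot be told apart. Separate clutches are not stated for the replicates; the p-values therefore cover the spread from library to library, part of which may be technical.

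Crystallins are the proteins that fill the fibre cells of the lens and give it its refractive power. Alpha crystallins belong to the small heat shock proteins and act as chaperones that hold other proteins in solution. Beta and gamma crystallins share a Greek key fold and are structural; beta crystallins form oligomers from acidic (A) and basic (B) members, gamma crystallins are monomers. The gamma M crystallins, which include crygm2d, are the abundant gamma crystallins of the fish lens and are rich in methionine. Most crystallin transcripts come from differentiating lens fibre cells, but CRYAB, the alpha B crystallin, is also made in muscle and heart. MicroRNAs are small regulatory RNAs that, bound to Argonaute, pair with messenger RNAs and lower their level or translation.

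Total gene counts ran from 19804199 to 30383374 per library. Of the 52 crystallins, 36 had enough counts to be tested for a difference: 1 alpha, 12 beta and 23 gamma, among them all 18 crygm2d copies. A member counted mainly in control, or mainly in a microRNA group, could pass the filter through that group, so counts over the tested members are descriptions. Another 13 had between 4 and 86 counts over all libraries, and crygm1, crygm6 and crygm7 had 0 counts in every library. The library of miR-29a replicate 3 stood apart. Its counts leaned toward short genes: a curve of its deviation by gene length had a median of 0.58 on the log2 scale at the lengths of the crystallins, against -0.06 to 0.04 in the other 11 libraries. Its TMM factor, the scaling of the library, was 0.729. Class sums, the main counts of called genes and many named crystallins are therefore given with and without it. The crygm2d copies summed into 1 row and single genes of other gene lists are given with it included, except where stated.

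The summed levels of all 3 classes lay below the control range in every library of both microRNAs. By the ratio of group means the gap was widest for gamma crystallins with either microRNA. With miR-29a it was wider still without replicate 3, and levels varied most from library to library relative to the group mean. Levels are CPM, counts scaled to library size with TMM. The summed gamma crystallins had 1612, 1596, 2048 and 1523 CPM in control replicates 1 to 4. They had 343, 364, 443 and 299 CPM in the miR-101a libraries and 70.6, 273, 946 and 170 CPM in the miR-29a libraries. No library of either microRNA reached the lowest control library, and miR-29a replicate 3 was the highest of its group. The group means were 1695 ± 238 CPM in control, 362 ± 60.2 with miR-101a and 365 ± 396 with miR-29a (SD, n = 4), and 171 CPM in the miR-29a group without replicate 3 (70.6 to 273, n = 3).

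The summed beta crystallins had 2085, 1631, 2459 and 1631 CPM in control, 718, 823, 921 and 723 CPM with miR-101a, and 106, 498, 912 and 338 CPM with miR-29a. Again neither group overlapped control, and miR-29a replicate 1 was the lowest of all. The control mean of 1951 ± 401 CPM was 2.45 times that of the miR-101a group and 4.21 times that of the miR-29a group, or 6.21 times without replicate 3. The same ratios for the gamma sum were 4.68, 4.65 and 9.91. The alpha sum, almost all of it CRYAA, went from 13.6 ± 3.44 CPM in control to 7.61 ± 1.24 with miR-101a and 5.21 ± 1.92 with miR-29a, ratios of 1.78 and 2.61 (2.83 without replicate 3). No test was made of these sums, since the members were chosen with results of these data known.

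**Figure D1:**
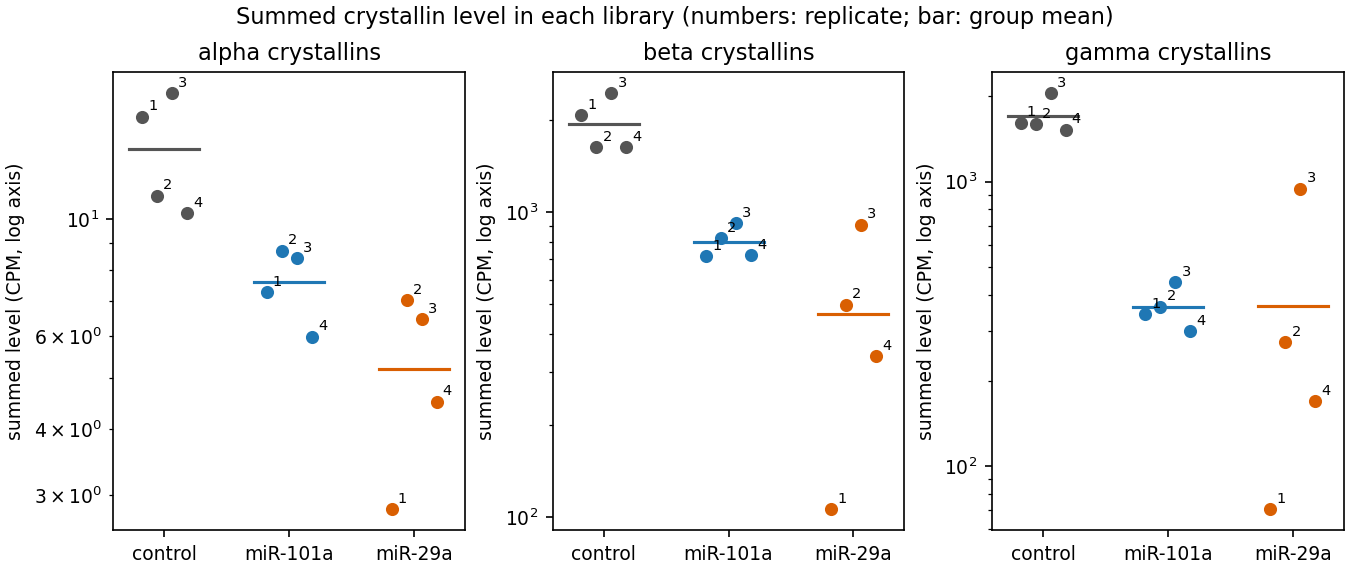
Summed CPM of alpha, beta and gamma crystallins on log axes, 1 point per library with its replicate number, for control, miR-101a and miR-29a; bars are group means. All libraries of both microRNAs lie below the control points in all 3 panels, and miR-29a replicate 3 is the highest of its group for beta (912 CPM) and gamma (946 CPM).

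Crystallins took 0.311% to 0.436% of all counts in the control libraries, 0.109% to 0.137% in the miR-101a libraries and 0.0199% to 0.136% in the miR-29a libraries. The miR-29a libraries differed among themselves: all crystallins together had 179 CPM in replicate 1, 777 in replicate 2, 1864 in replicate 3 and 513 in replicate 4. Replicate 3 thus had 10.4 times the level of replicate 1 for all crystallins, 13.4 times for the gamma sum but 2.29 times for the alpha sum. These ratios include the TMM factors, 0.729 in replicate 3 and 1.11 in replicate 1. By its share of all counts (0.136%) replicate 3 lay within the miR-101a range, whereas its CPM lay above every miR-101a library. The share in replicate 1 was 0.0199%. In these whole-animal samples, fewer lens cells and less crystallin RNA per cell cannot be told apart.

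Per transcript length the crystallins of control fish formed a steep order. Levels in this paragraph are RPKM, reads per kilobase of transcript scaled to library size, computed here from the deposited counts. The beta crystallin CRYBA4 came first, with 355 ± 107 RPKM, then crygm2d13 with 342 ± 46.8 and the gamma N crystallin CRYGN (ENSDARG00000030411) with 286 ± 34.4 (SD, n = 4). The next 3 were beta crystallins: crybb1l2 with 233 ± 42.8, CRYBA2 (ENSDARG00000041925) with 215 ± 16.2 and CRYBB1 with 211 ± 60.3 RPKM. The gaps from crygm2d13 to CRYGN and from CRYGN to crybb1l2 exceeded the SDs of both genes, while the gaps between the other neighbours among these 6 were smaller than the larger of the pair's SDs. CRYAA, the alpha A crystallin, came at place 28 with 9.18 ± 2.29 RPKM, and the crygm2d copies ran from 3.55 to 342 RPKM. These copies are similar and can share reads, so the places of single copies, crygm2d13 included, are uncertain.

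**Figure D2:**
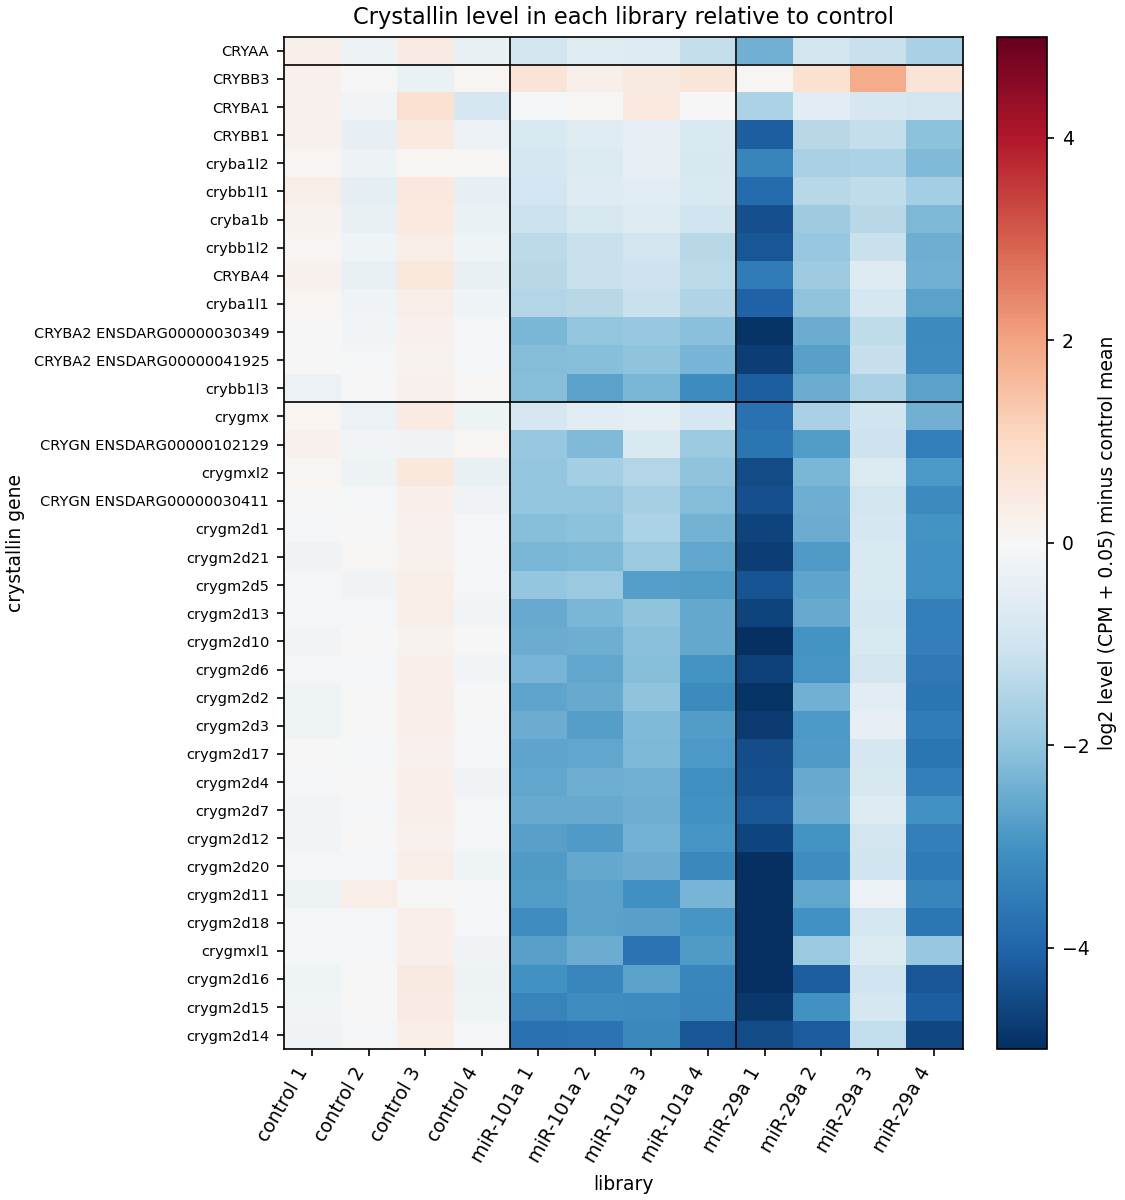
Level of each tested crystallin (rows, with alpha, beta and gamma separated by lines) in each library (columns), as log2(CPM + 0.05) minus the control mean; blue is below and red above control. Most rows are blue in all miR-101a and miR-29a columns, darkest in miR-29a replicate 1 and pale in miR-29a replicate 3, whereas CRYBB3 is above its control mean in the miR-101a columns.

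The first comparison asked which crystallin transcripts differed between fish with synthetic miR-101a and fish with no perturbation. Of the 36 tested, 25 were lower and 0 higher at a Benjamini-Hochberg adjusted p under 0.05 in edgeR's quasi-likelihood test across all 20872 tested genes. Of all tested genes 6.97% were lower and 11.7% higher. The median of the 36 log2 fold changes was -2.28, against 0.02 over all tested genes. By class, 22 of 23 gamma, 3 of 12 beta and 0 of 1 alpha crystallins passed. The 18 crygm2d copies, which are similar and can share reads, make up much of these counts. With them summed into 1 row, 8 of 19 rows were lower (5 of 6 gamma), with a median of -1.26. At an unadjusted p under 0.05, 0 of the 36 were higher. DESeq2 and limma on log2(RPKM + 0.5) made 0 higher calls, with 1 and 0 at an unadjusted p, where DESeq2 called 11.8% of all genes higher. No share of all genes at an unadjusted p is given here, for this or the later comparisons. Without miR-29a replicate 3, which enters through the shared estimate of spread, 30 were lower (7 beta, 22 gamma and CRYAA), where 24.2% of all genes were lower and 23.7% higher. Of the 25 calls, 11 were lost in at least 1 fit that left out a library. The count dropped to 14, 16 and 16 without miR-101a replicates 1, 2 and 4. Shares of all genes are not given here for fits without libraries other than miR-29a replicate 3. Whether such shifts are particular to crystallins was not tested. With only the control and miR-101a libraries in the fit, 34 of 35 tested members were lower (all 23 gamma, 10 of 11 beta and CRYAA), where 23.1% of all genes were lower and 26.1% higher. The groups did not overlap for 34 of 36 members in the lower direction, against 20.5% of all genes.

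The alpha A crystallin CRYAA had 15.4, 10.8, 17.1 and 10.04 CPM in control and 6.78, 8.52, 8.22 and 5.69 CPM with miR-101a. The groups did not overlap, but the difference of -0.87 ± 0.29 on the log2 scale (SE) missed the threshold (adjusted p = 0.0562); without miR-29a replicate 3 it passed (-0.89 ± 0.28, adjusted p = 0.0244, range over all alternatives 0.00459 to 0.158), as it did without miR-29a replicates 1 or 2. It also passed with the replicate number as a block (adjusted p = 0.049), with RLE scaling, with offsets for gene length, with DESeq2 and with only the 8 libraries compared. The remaining alpha crystallins, both named CRYAB, were too low to test: ENSDARG00000101380 had 27, 31 and 28 counts over the 4 control, miR-101a and miR-29a libraries, and ENSDARG00000042621 had 0, 3 and 9. The counts of the first CRYAB gene thus lay close together in the 3 groups.

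Among beta crystallins both CRYBA2 genes, which encode acidic subunits, and crybb1l3, named as like a basic subunit, were lower. CRYBA2 (ENSDARG00000041925) had 348, 333, 393 and 327 CPM in control and 77.6, 79.5, 87.7 and 69.4 CPM with miR-101a. The groups lay far apart, and the difference was -2.16 ± 0.53 (adjusted p = 0.0142). CRYBA2 (ENSDARG00000030349) differed by -2.06 ± 0.52 (adjusted p = 0.0166), a call lost without miR-101a replicate 1 (-1.99, adjusted p = 0.0549, range over all alternatives 4.8e-08 to 0.0549). crybb1l3, a low transcript, went from 3.76 ± 0.55 to 0.618 ± 0.20 CPM, a difference of -2.58 ± 0.38 (adjusted p = 0.000692).

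The other abundant beta crystallins did not pass, although their libraries did not overlap those of control. The beta count depended on the fit: 3 of 12 were lower with all 12 libraries, but 7 without miR-29a replicate 3, 9 without miR-29a replicate 1, 10 of 11 with only the 8 libraries compared, and 8 of 13 with DESeq2, which called 8.57% of all genes lower. Of all genes 24.2% were lower without miR-29a replicate 3 and 23.1% with only the 8 libraries compared. The share without miR-29a replicate 1 is not given here. CRYBB1, a basic subunit, had 229, 148, 273 and 157 CPM in control and 114, 129, 147 and 116 CPM with miR-101a; its highest miR-101a library nearly reached its lowest control library. Its difference was -0.67 ± 0.44 (adjusted p = 0.355). CRYBA4 differed by -1.26 ± 0.46 (adjusted p = 0.0817), crybb1l2 by -1.19 ± 0.45 (adjusted p = 0.0926) and cryba1b by -0.92 ± 0.45 (adjusted p = 0.197). CRYBA4 and crybb1l2 passed without miR-29a replicate 3, with -1.28 and -1.21, and CRYBA4, crybb1l2 and cryba1b passed without miR-29a replicate 1; all 4, CRYBB1 included (adjusted p = 0.0454), passed with only the 8 libraries compared. CRYBA1 had 0.939 ± 0.44 and 0.956 ± 0.19 CPM, and CRYBB3 was the single tested member whose miR-101a libraries were all above control (0.284 ± 0.053 and 0.419 ± 0.056 CPM), with a difference of 0.57 ± 0.39 that did not pass (adjusted p = 0.374). CRYBB3 had only 30 counts over the control and 45 over the miR-101a libraries. Its ranges nearly met, at 0.334 CPM in the highest control and 0.347 CPM in the lowest miR-101a library. The share of all genes above control without overlap is not given here.

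The 18 crygm2d copies were all lower, with log2 fold changes of -3.72 to -2.01 and a median of -2.59. The most abundant copy, crygm2d13, had 219, 211, 279 and 207 CPM in control and 39.2, 46.4, 55.9 and 38.4 CPM with miR-101a. The groups lay far apart, with a difference of -2.35 ± 0.60 (adjusted p = 0.0175) that missed the threshold without miR-101a replicate 1 (-2.29) or replicate 4 (-2.28). The next copies, crygm2d17 and crygm2d10, differed by -2.57 ± 0.61 (adjusted p = 0.0122) and -2.38 ± 0.65 (adjusted p = 0.0236), the second of which lost its call without any miR-101a library and without control replicates 2 or 3 (-2.49 to -2.31). The largest difference was in crygm2d14, which had 22.2, 24.7, 31.6 and 24.0 CPM in control and 1.88, 1.93, 2.70 and 1.25 CPM with miR-101a (-3.72 ± 0.70, adjusted p = 0.00318). crygm2d15 (-3.26 ± 0.69, adjusted p = 0.00637) and crygm2d16 (-3.10 ± 0.74, adjusted p = 0.0126) followed. These copies are similar and can share reads, so their single values are uncertain. Summed into 1 row before the fit, they differed by -2.51 ± 0.63 (adjusted p = 0.0162).

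Of the 5 other tested gamma crystallins 4 were lower. CRYGN (ENSDARG00000030411) had 287, 271, 340 and 254 CPM in control and 75.2, 73.8, 90.6 and 64.3 CPM with miR-101a, without overlap. Its difference of -1.92 ± 0.54 (adjusted p = 0.0268) missed the threshold without any single control or miR-101a library, the value lying between -2.02 and -1.83. The lower-count CRYGN (ENSDARG00000102129) differed by -1.60 ± 0.48 (adjusted p = 0.0355), a call lost without any control library or miR-101a replicates 1, 2 or 4 (-1.66 to -1.45). crygmxl1 went from 2.99 ± 0.40 to 0.366 ± 0.13 CPM (-3.03 ± 0.63, adjusted p = 0.00564). The genes crygmx and crygmxl2 lie near each other, with 1 other gene between them. crygmxl2 differed by -1.80 ± 0.57 (adjusted p = 0.0463) and crygmx by -0.70 ± 0.41 (adjusted p = 0.291). crygmxl2 lost its call without any single control or miR-101a library, or without miR-29a replicate 2 (-1.92 to -1.60). The difference between the genes was not tested. Their counts stood at 2.13 to 2.47 crygmxl2 reads per crygmx read in control and at 1.02 to 1.17 with miR-101a.

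**Figure D3:**
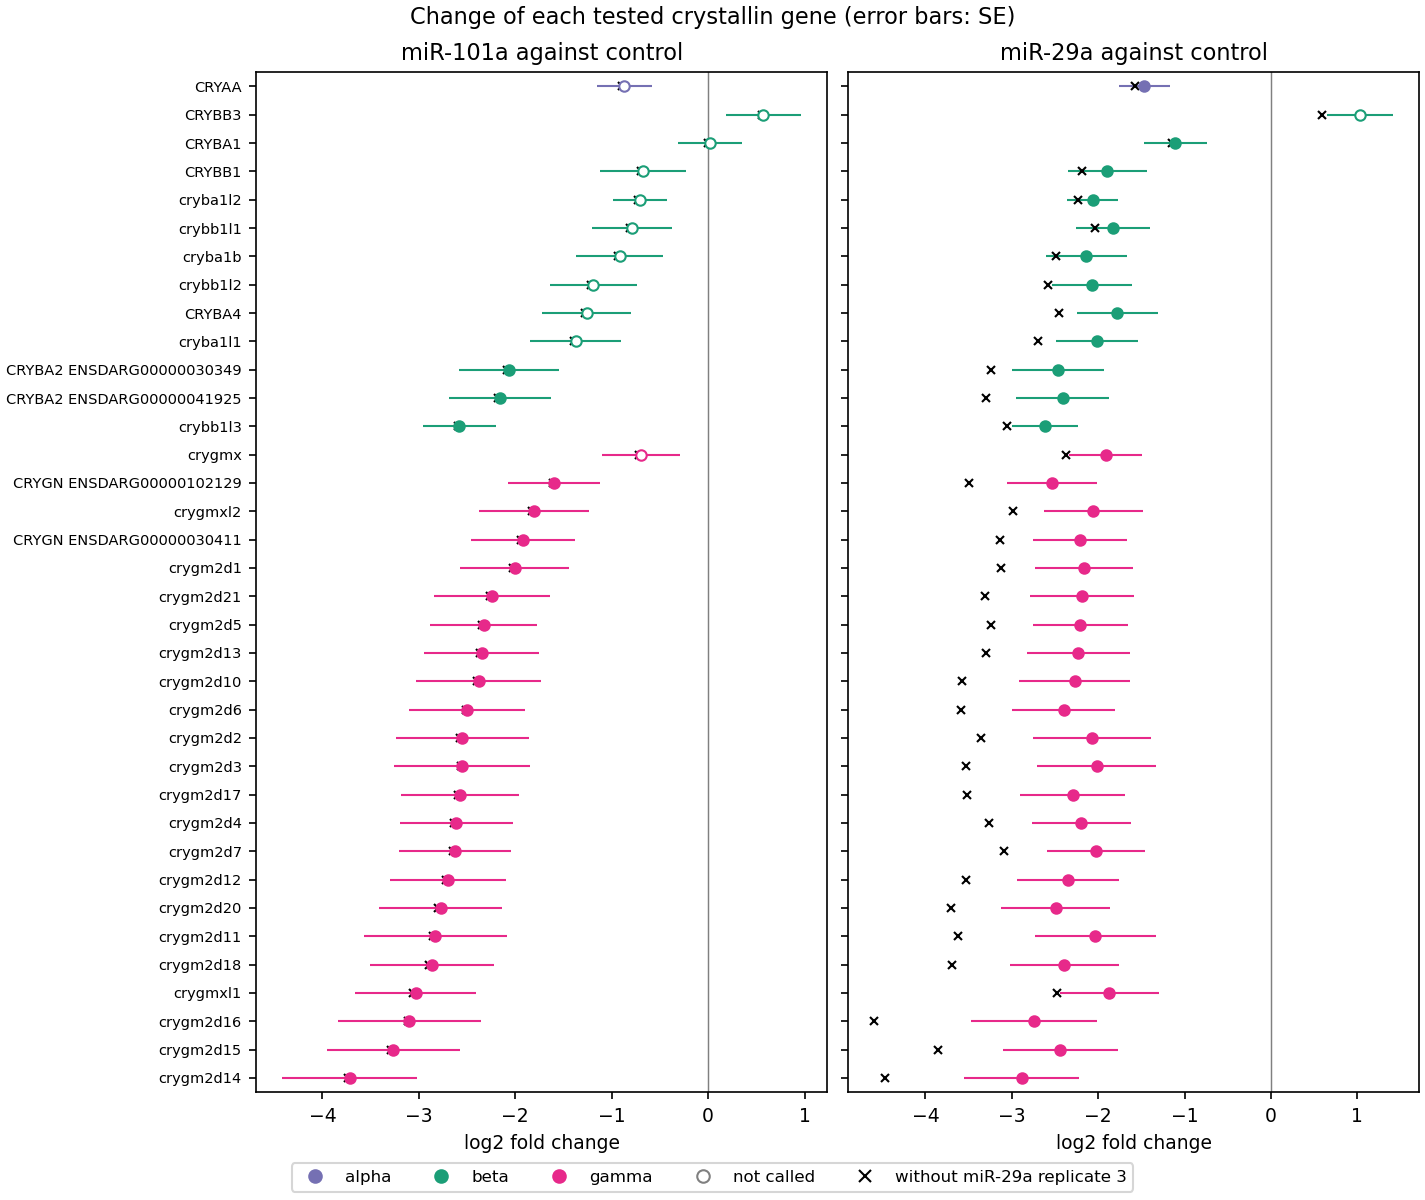
Log2 fold change of the tested crystallins against control with its standard error, for miR-101a (left) and miR-29a (right), coloured by class; filled points passed an adjusted p under 0.05, open points did not, and crosses give the value without miR-29a replicate 3. With miR-101a the beta members spread from -2.58 to 0.57 and the crygm2d copies from -3.72 to -2.01; with miR-29a the crosses of the crygm2d copies lie left of their points, down to -4.59.

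The second comparison asked the same for synthetic miR-29a. Of the 36 tested crystallins 35 were lower and 0 higher, where 11.9% of all tested genes were lower and 17.1% higher. The median was -2.17, against 0.03 over all tested genes. All 23 tested gamma crystallins, 11 of 12 beta crystallins and CRYAA passed. With the crygm2d copies summed into 1 row, 18 of 19 rows were lower (6 of 6 gamma), with a median of -2.06. Without miR-29a replicate 3 the same 35 were lower, with a median of -3.24, where 26.8% of all genes were lower and 25.8% higher. In the lower direction 34 of 36 did not overlap control, against 15.1% of all genes (28.2% without replicate 3). At an unadjusted p under 0.05, 1 was higher (CRYBB3), and DESeq2 called 0 higher and 22 of 28 lower, where it called 16.7% and 13.3% of all genes. Of the 35 calls, 7 were lost in at least 1 fit that left out a library. With only the control and miR-29a libraries in the fit, 23 of 35 tested members were lower (12 of 23 gamma, 10 of 11 beta and CRYAA), where 8.29% of all genes were lower and 12.9% higher. All 25 crystallins lower with miR-101a were also lower with miR-29a, but both comparisons share the 4 control libraries.

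CRYAA had 2.401, 6.80, 5.94 and 4.15 CPM with miR-29a, all below its lowest control library of 10.04 CPM. Its difference was -1.47 ± 0.29 (adjusted p = 0.00294), and -1.58 without replicate 3. Among beta crystallins the largest differences were in crybb1l3 (-2.61 ± 0.38, adjusted p = 0.000371) and both CRYBA2 genes (-2.46 ± 0.53 for ENSDARG00000030349, adjusted p = 0.00445, and -2.41 ± 0.53 for ENSDARG00000041925, adjusted p = 0.00529), which stood at -3.05, -3.24 and -3.30 without replicate 3. CRYBA2 (ENSDARG00000041925) had 13.4, 53.4, 158 and 39.8 CPM in miR-29a replicates 1 to 4, so that replicate 3 alone was above the miR-101a libraries.

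CRYBB1, which had not passed with miR-101a, had 11.2, 74.7, 84.5 and 46.5 CPM with miR-29a and passed (-1.90 ± 0.46, adjusted p = 0.00861). So did CRYBA4 (-1.78 ± 0.47, adjusted p = 0.0138), crybb1l2 (-2.07 ± 0.47, adjusted p = 0.00568), cryba1b (-2.14 ± 0.47, adjusted p = 0.00484) and cryba1l2 (-2.06 ± 0.30, adjusted p = 0.000316). Without replicate 3 these 5 stood at -2.19, -2.45, -2.58, -2.48 and -2.24. CRYBA1 was lower too (-1.11 ± 0.36, adjusted p = 0.0382), although its miR-29a libraries overlapped the control range. That call was lost without miR-29a replicates 1 or 4, control replicates 1, 2 or 3, or miR-101a replicates 1, 2 or 4, the value staying between -1.33 and -0.78. CRYBB3 had 0.295, 0.505, 1.14 and 0.468 CPM, 3 of them above its range of 0.210 to 0.334 CPM in control. Its difference of 1.03 ± 0.38 did not pass (adjusted p = 0.0613) and was 0.59 without replicate 3, but limma on log2(RPKM + 0.5), and the fit without miR-29a replicate 1 (1.25), called it higher.

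The crygm2d copies were again all lower, by log2 fold changes from -2.88 to -2.02 with a median of -2.25, or -3.53 without replicate 3. crygm2d13 had 9.18, 39.5, 127 and 20.9 CPM, all below its lowest control library of 207 CPM, and replicate 3 was the highest by far. Its difference was -2.23 ± 0.60 (adjusted p = 0.015), and -3.30 without replicate 3. crygm2d14 and crygm2d16 had the largest differences (-2.88 ± 0.67, adjusted p = 0.00669, and -2.74 ± 0.73, adjusted p = 0.0147), which became -4.47 and -4.59 without replicate 3. crygm2d10 (-2.27 ± 0.65, adjusted p = 0.0201) lost its call without miR-29a replicates 2 (-2.10) or 4 (-2.03). Without replicate 3 it kept its call and stood at -3.57. With only the 8 libraries compared 9 of the 18 copies passed; crygm2d10, crygm2d15 and crygm2d16 did not (-2.31, -2.47 and -2.77; adjusted p = 0.0621, 0.055 and 0.0536). The summed copies differed by -2.26 ± 0.63 (adjusted p = 0.0177).

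Beyond crygm2d, both CRYGN genes were lower, ENSDARG00000102129 by -2.54 ± 0.52 (adjusted p = 0.00348) and ENSDARG00000030411 by -2.21 ± 0.54 (adjusted p = 0.0094), and by -3.49 and -3.14 without replicate 3. crygmx had 58.1, 44.4, 72.0 and 44.8 CPM in control, 30.2, 36.7, 38.5 and 29.9 CPM with miR-101a and 4.00, 17.4, 26.8 and 10.1 CPM with miR-29a. The 3 groups did not overlap, in that order. Against control crygmx was lower with miR-29a (-1.91 ± 0.42, adjusted p = 0.00522, and -2.38 without replicate 3). crygmxl2 was lower too (-2.05 ± 0.58, adjusted p = 0.0188, and -2.99 without replicate 3), a call lost without control replicate 3 (-1.85, adjusted p = 0.0528, range over all alternatives 0.000459 to 0.0579) and with only the 8 libraries compared (-2.09).

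The direct comparison of the microRNAs asked whether crystallins differed between them, and its count depended on miR-29a replicate 3. With all 12 libraries 1 of 36 crystallins was lower with miR-29a than with miR-101a and 0 were higher, where 9.23% and 8.64% of all tested genes were. That member was cryba1l2, with 7.48, 8.37, 10.4 and 7.93 CPM in the miR-101a libraries and 1.35, 4.47, 4.601 and 3.01 CPM in the miR-29a libraries. Its groups did not overlap, and the difference was -1.35 ± 0.29 (adjusted p = 0.00784), or -1.51 without replicate 3. At an unadjusted p under 0.05, 6 were lower and 0 higher, counts that without a share of all genes do not set crystallins apart. DESeq2 called 5 lower, where it called 10.3% of all genes lower, and 0 higher, with 1 higher at an unadjusted p. With only the 8 libraries compared 2 were lower and 0 higher, where 4.57% and 4.61% of all genes were.

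Without replicate 3, 18 were lower (8 beta and 10 gamma) and 0 higher, where 22.1% of all genes were lower and 21.3% higher. Without replicate 1 of miR-29a 3 were lower and 1, crygmxl1, was higher (1.16 ± 0.68 with all libraries, adjusted p = 0.284), and without control replicates 3 or 4 or miR-29a replicate 2 there were 2 lower. The shares of all genes in these fits are not given here. The median over the crygm2d copies moved from 0.35 to -0.90 without miR-29a replicate 3. With all 12 libraries it was -0.10 with the replicate number as a block and -0.32 with limma on log2(RPKM + 0.5), so the copies' direction between the microRNAs depends on the library and on the model. Summed, the copies differed by 0.25 ± 0.60 (adjusted p = 0.823) with all libraries. The groups did not overlap for 6 of 36 in the lower direction with all libraries, against 12.0% of all genes, and for 20 without replicate 3, against 24.1%. Examples of members called without replicate 3 are CRYBB1 (-1.22 ± 0.45 with it and -1.50 without), cryba1b (-1.22 ± 0.46 and -1.55) and crygmx (-1.22 ± 0.42 and -1.66). Their adjusted p-values with all 12 libraries were 0.0854, 0.0892 and 0.0652, and CRYBB1 and cryba1b also passed without miR-29a replicate 1 (both -0.88).

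Within the crystallins, the balance between classes differed by group. The gamma-to-beta ratio of counts was 0.773 to 0.979 in control and 0.413 to 0.481 in the miR-101a libraries, without overlap. In the miR-29a libraries it was 0.666, 0.548, 1.04 and 0.502 in replicates 1 to 4, so that 3 libraries lay between those ranges and replicate 3 above both. The crygm2d copies made up 70.0% to 73.7% of gamma counts in control, 57.8% to 60.1% with miR-101a and 64.4% to 72.8% with miR-29a. Within the beta class, the counts of CRYBA2 (ENSDARG00000041925) per CRYBB1 read were 1.44 to 2.26 in control, 0.596 to 0.681 with miR-101a and 0.715 to 1.86 with miR-29a. CRYBA4 and CRYBB1, which neighbour each other, stood at 1.22 to 1.32, 0.834 to 0.900 and 0.981 to 1.95. A ratio of this kind shows unequal differences from control, not which member differed, and no test was made of it.

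**Figure D4:**
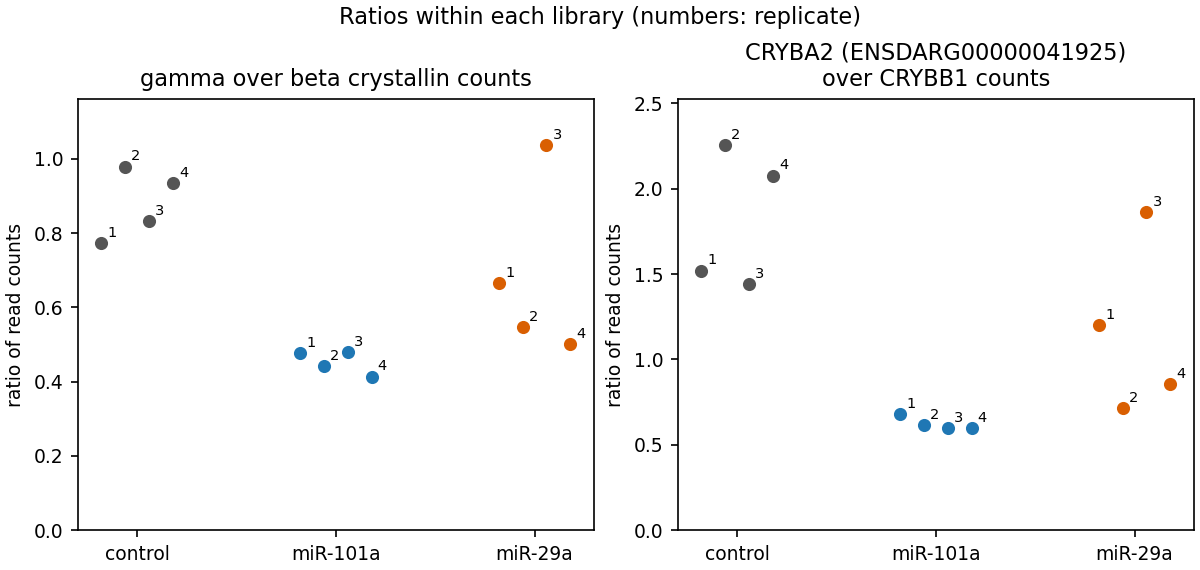
Ratios of read counts within each library, 1 point per library with its replicate number: summed gamma over summed beta crystallins (left) and CRYBA2 (ENSDARG00000041925) over CRYBB1 (right). The miR-101a libraries lie below the control range in both, at 0.413 to 0.481 and 0.596 to 0.681, and the miR-29a libraries spread widely, with replicate 3 highest.

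In the gene order of the RefSeq assembly GRCz12tu, used here for neighbours only, 34 crystallins from crygm7 to crygs3 lie in 1 run with at most 1 other gene between neighbours. The count table holds 29 of these, of which 19 were tested, 7 were too low and 3 were at 0. They took 72.2% of all gamma counts in control. The run is mixed: the crygm2d copies in it had 450 to 33540 counts over all 12 libraries, while crygm2a, crygm2e, crygm2f, crygm3, crygm5, crygs3 and crygs4 had 4 to 56.

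Among the members too low to test, counts were below control in some and above it in others. crygm5 had 43 counts over the control libraries, 9 with miR-101a and 4 with miR-29a, and CRYBB2 had 41, 2 and 15. CRYGS (ENSDARG00000041171), a gamma S crystallin, had 2, 15 and 10, and crygs4 had 3, 9 and 8. These counts were below the filter, and no test of these members is given in this paragraph. Some alternatives did test members below the filter, among them DESeq2, whose 13 beta crystallins include CRYBB2, and the fit with no filter on low counts.

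Other genes of the lens were taken from a list of membrane, cytoskeletal and enzyme genes of fibre cells. With miR-101a 8 of its 21 tested members were lower and 1 higher (median -0.99), and with miR-29a 15 were lower and 0 higher (median -2.15). Of all genes 6.97% and 11.9% were lower, and 11.7% and 17.1% higher. Without replicate 3 of miR-29a 15 members of the list were lower and 1 higher with each. Of all genes 24.2% and 26.8% were then lower, and 23.7% and 25.8% higher. The summed level of the list was 443 to 538 CPM in control, 271 to 302 with miR-101a and 145 to 225 with miR-29a, without overlap, and replicate 3 of miR-29a was the highest of its group. dnase1l1l, named as like a DNase, differed by -2.19 ± 0.39 with miR-101a (adjusted p = 0.00228), and BFSP2, a filament protein of lens fibres, by -2.70 ± 0.35 with miR-29a (adjusted p = 0.000157).

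Of 21 tested transcription factors of lens development 2 were lower with miR-101a (median 0.03) and 10 with miR-29a (median -0.60), and 0 were higher with either. The share of all genes lower was 6.97% and 11.9%, so the miR-101a count lay near it. The share of all genes higher was 11.7% and 17.1%. Without replicate 3, 8 and 16 were lower and 2 and 1 higher. Of all genes 24.2% and 26.8% were then lower, and 23.7% and 25.8% higher. The summed level of these factors was 948 to 1073 CPM in control, 913 to 994 with miR-101a, overlapping it, and 732 to 911 with miR-29a. These are levels in whole animals, not in the lens alone. PAX6 (ENSDARG00000045936), which specifies eye tissue, had 53.9 CPM in control, 40.7 with miR-101a (-0.41 ± 0.11, adjusted p = 0.0197) and 21.5 with miR-29a (-1.32 ± 0.11, adjusted p = 6.4e-06). foxe3, a factor of the lens epithelium, was lower with miR-101a (-0.95 ± 0.30, adjusted p = 0.0466), and MAFA was not called with it (-0.48 ± 0.16, adjusted p = 0.0528) but was lower with miR-29a (-1.03 ± 0.16, adjusted p = 0.00049). PROX1, a factor of fibre differentiation, was lower with miR-29a (-1.52 ± 0.20, adjusted p = 0.000164). The small heat shock proteins other than alpha crystallins went both ways: 2 of 9 lower and 2 higher with miR-101a, 5 and 2 with miR-29a (without replicate 3, 3 and 3, and 6 and 2). Of all genes 6.97% were lower and 11.7% higher with miR-101a, 11.9% and 17.1% with miR-29a, and without replicate 3 24.2% and 23.7%, and 26.8% and 25.8%. Their summed level was 87.4 to 93.6 CPM in control and above it in every library of both microRNAs (110.3 to 118 with miR-101a and 111 to 157 with miR-29a). hspb9 was lower with both (-2.27 ± 0.36, adjusted p = 0.00109, and -2.80 ± 0.37, adjusted p = 0.000195), HSPB1 higher with both (0.67 ± 0.17, adjusted p = 0.0173, and 1.56 ± 0.17, adjusted p = 5.3e-05), HSPB8 higher with miR-101a (0.52 ± 0.09, adjusted p = 0.00236) and hspb6 lower with miR-29a (-1.74 ± 0.28, adjusted p = 0.000701).

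Lists of retina genes and of epidermis and cornea genes were set beside the crystallins, and their part in the crystallin results was not tested. The samples were whole animals, so the levels of these lists are not those of the eye alone. Of 31 tested genes on the retina list 6 were lower and 3 higher with miR-101a, and 22 lower and 0 higher with miR-29a. Without replicate 3 these counts were 14 and 5, and 27 and 0. The same shares of all genes apply, 6.97% lower and 11.7% higher with miR-101a and 11.9% and 17.1% with miR-29a, and without replicate 3 they were 24.2% and 23.7%, and 26.8% and 25.8%. Their summed level was 954 to 1015 CPM in control, 735 to 835 with miR-101a and 352 to 724 with miR-29a, where replicate 3 was the lowest. sagb, an arrestin, was lower with both (-2.29 ± 0.27, adjusted p = 0.000156, and -2.39 ± 0.27, adjusted p = 6.2e-05). The photoreceptor gene rbp3 was higher with miR-101a (1.54 ± 0.28), and rx1 and CRX, factors of retinal and photoreceptor development, were lower with miR-29a (-1.69 ± 0.18 and -3.05 ± 0.36). Of 19 epidermis and cornea genes 4 were higher with miR-101a and 6 with miR-29a and 0 were lower with either, where 11.7% and 17.1% of all genes were higher, cdh1 (0.75 ± 0.07 and 1.13 ± 0.07), TP63 (0.32 ± 0.06 and 0.40 ± 0.06) and cldne (0.37 ± 0.08 and 1.29 ± 0.08) among the higher ones. Without miR-29a replicate 3, 3 were lower and 9 higher with miR-101a, and 7 lower and 7 higher with miR-29a, where 23.7% and 25.8% of all genes were higher and 24.2% and 26.8% lower. The 7 lower with miR-29a, named after their values were seen, were the keratin genes krt91 (-1.64), krt92 (-1.38), krt4 (-0.58), krt17 (-0.33), cyt1l (-0.30), cyt1 (-0.25) and krt8 (-0.16). The summed level of the epidermis list was 20653 to 21844 CPM in control, 20549 to 24096 with miR-101a which overlapped, and 15972, 16539, 27785 and 16468 CPM in miR-29a replicates 1 to 4. No miR-29a library lay within the control range: replicate 3 was above it and the other 3 were below it.

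**Figure D5:**
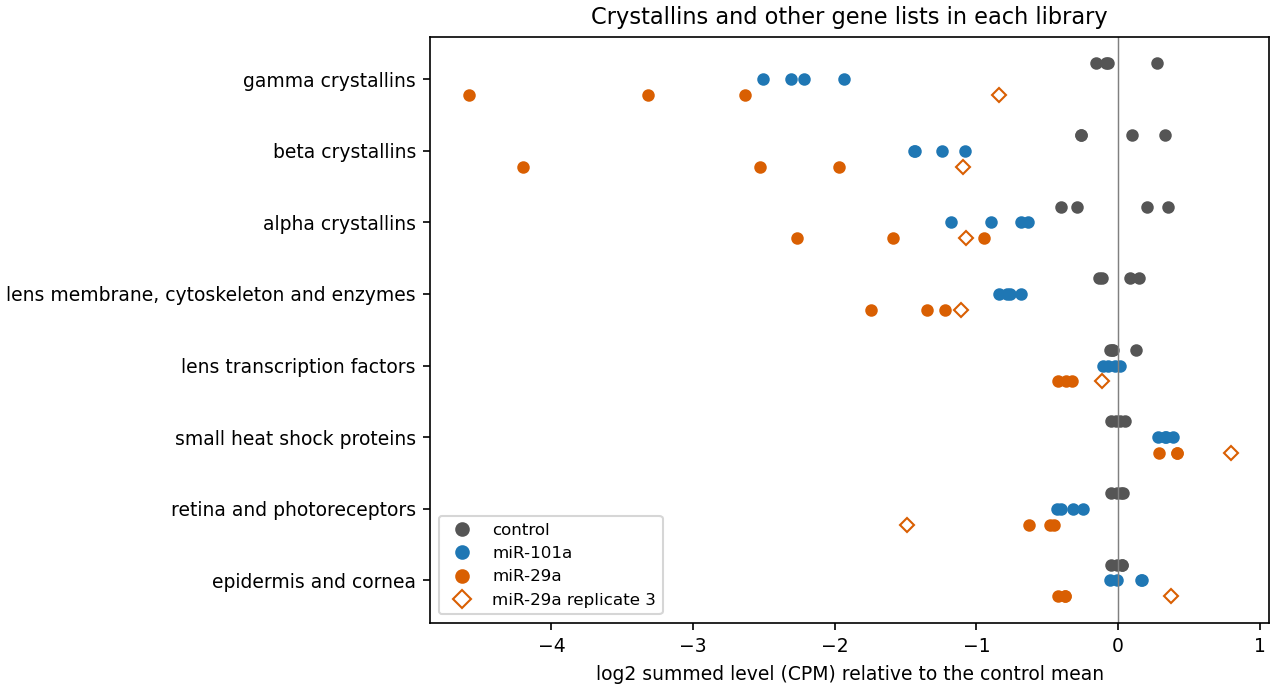
Summed CPM of the crystallin classes and of the 5 other lists in each library, as the log2 difference from the control mean; open diamonds are miR-29a replicate 3. Beta and gamma crystallins lie farthest below control with miR-101a and in miR-29a replicates 1, 2 and 4, the other lens structural genes lie below it in all libraries of both microRNAs, and in replicate 3 the retina list is the lowest point.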

How the data were processed

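The library kit, TruSeq RNA v2 per the labels' protocols, does not mark the strand. Reads from the overlap of a gene with one on the opposite strand therefore cannot be told apart, and how they were counted is not known. The authors deposited whole-number counts per gene, unnormalized; per the submitters' processing notes, the build was GRCz10 and the tools STAR 2.4.1d, featureCounts 1.4.6-p4 and bcl2fastq 1.8.4, while settings are not given in the sources used here. The RPKM values the authors deposited had been divided by library totals recycled down the genes (checked on 7554 genes), so they served only to derive gene lengths; RPKM was recomputed from counts.

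Groups followed the perturbation label. The test used edgeR 4.0.16 in R 4.3.3: filterByExpr (minimum count 10) kept 20872 genes, TMM scaled the libraries, and a quasi-likelihood model of all 12 libraries gave Benjamini-Hochberg adjusted p-values over all tested genes, called under 0.05. Each SE of a log2 fold change was derived from this test, as the size of the change divided by the square root of the F statistic. The biological coefficient of variation was 21.7%. The labels name no batch, so the replicate numbers were not taken as pairs in this model. Same-numbered libraries of different groups had correlated deviations above 0.1 in 7 of 12 pairs (-0.207 to 0.406). Whether the numbers mark shared batches was not tested, and a fit with the number as a block is among the alternatives.

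Symbols came from a table pairing identifiers with names (26269 of 32105 matched), and some zebrafish genes carry human-style symbols. For 5 further crystallins of that table, crygm2b, crygm2c, crygm2d8, crygm2d9 and crygm2d19, no row was analysed here. The members, lists and tests were chosen with earlier results of these data known. Named were all alpha crystallins, the most abundant beta and gamma crystallins by RPKM, the 3 largest called differences of each class and the 3 members of each list with the smallest p against control, some of which are not reported here; the CRYBA1, CRYBB3, crygmxl1 and low-count members named beside these were chosen after their values were seen. Alternatives were RLE scaling, DESeq2 1.42.0, limma 3.58.1 on log2(RPKM + 0.5) and log2(RPKM + 0.1), other filters, the replicate number as a block, the 8 libraries compared alone, offsets for gene length, summed crygm2d copies and leaving out each library; leaving out miR-29a replicates 1 and 3 together, and length offsets without replicate 3, were added after seeing the data.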

Additional observations from a re-analysis of the deposited data

Results flagged for a closer look

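Of 87 groups of 4 libraries checked for a library far from the others, 8 were set apart by Dixon's test, where chance sets apart about 1 in 20. The checks overlap, since sums contain their members and the crygm2d copies can share reads, so the 8 cannot be set against that rate. Control replicate 3 was far above the other controls in the summed gamma crystallins (2048 CPM against 1523 to 1612), in the summed crygm2d copies (1449.9 CPM against 1123 to 1172) and in crygm2d13 (279 CPM against 207 to 219). CRYGN (ENSDARG00000102129) was far higher in miR-101a replicate 3 (1.61 CPM) than in the others of that group (0.545 to 0.721). It was also higher in miR-29a replicate 3 (1.29 CPM) than in the rest of the miR-29a group (0.169 to 0.350). This gene had 96 counts over the miR-101a and 44 over the miR-29a libraries, so both flags rest on few reads. CPM in miR-29a replicate 3 includes its TMM factor of 0.729 and its lean toward short genes. In miR-29a replicate 3 the copies crygm2d15 (22.02 CPM against 1.35 to 4.86), crygm2d14 (10.8 against 1.04 to 1.36) and crygm2d16 (8.74 against 0.379 to 0.933) stood far above the other miR-29a libraries.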

How the results depend on the processing

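With miR-101a, the 25 lower crystallins became 34 with only the 8 libraries compared, 18 with DESeq2, 8 with the crygm2d copies summed and 14 to 32 when single libraries were left out, and the 0 higher became 1 (CRYGS ENSDARG00000041171) with no filter on low counts. With miR-29a, the 35 lower became 23 with only the 8 libraries compared, 18 with the copies summed, 22 with DESeq2 and 29 to 35 when single libraries were left out; 1 instead of 0 was higher with limma at either pseudocount, and 0 to 1 without single libraries. DESeq2 gave an adjusted p to 4 of the 18 crygm2d copies, and summing leaves fewer rows to count; the cause of the other shifts was not tested. Between the microRNAs, the 1 lower became 2 with RLE scaling or only the 8 libraries compared, 3 with the replicate block, 5 with length offsets, DESeq2 or limma on log2(RPKM + 0.1), 6 with limma on log2(RPKM + 0.5), 16 with length offsets and no miR-29a replicate 3, and 15 without miR-29a replicates 1 and 3 (1 higher). Without single libraries it was 1 to 18 lower and 0 to 1 higher. Of all genes 9.23% were lower between the microRNAs with all 12 libraries and 22.1% without miR-29a replicate 3. Shares of all genes are given above for DESeq2, for the 8 libraries compared alone and without miR-29a replicate 3. They are not given here for the other alternatives, so those counts alone do not set crystallins apart from all genes. The block moved neither count against control by over 1.5 times. The log2 ratio of the gamma sums between the microRNAs ran from -1.07 to 0.35 without single libraries (0.01 with all). The named genes' values were also followed by their side of the threshold. In the fits whose one difference was a library left out, 687 kept it, 25 gained and 44 lost a call. Under all other alternatives these were 646, 61 and 4, and 0 reversed a call. Values not called in the fit of all 12 libraries could change sign and still be counted as kept or gained. Between the microRNAs crygm2d13 went from 0.12 to -0.93 without miR-29a replicate 3, and crygm2d17 from 0.28 to -0.06 with length offsets. At this depth, 13 crystallins with at most 86 counts fell below the filter and were not tested, except in alternatives such as no filter on low counts.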
